A study of Mus musculus with 19 samples.

Results

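The Cyp3a genes encode the cytochrome P450 enzymes of subfamily 3A. Of 6 listed genes (Cyp3a11, Cyp3a13, Cyp3a16, Cyp3a25, Cyp3a41a and Cyp3a44), 5 had a probe carrying their RefSeq accession, out of 20018 genes named this way on the array. These 5 genes had 7 probes, 2 each for Cyp3a11 and Cyp3a13, and all 7 passed the filter on dim signal. No probe carried an accession of Cyp3a41a, so this gene was not measured here under its own accession. Cyp3a41b, Cyp3a57 and Cyp3a59, with 4 further probes, are given beside the members where they help to place them.

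Male mice of the transgenic strain 40.6, aged 10 weeks, received dibenz[a,h]anthracene (DB[a,h]A), a polycyclic aromatic hydrocarbon that binds the aryl hydrocarbon receptor, and RNA from part of the liver was taken 3 days later. The groups held 5 animals at 0 mg/kg (control), 5 at 6.25 mg/kg, 4 at 12.5 mg/kg and 5 at 25 mg/kg, with 1 array per animal, and controls were of the same transgenic strain as dosed animals. The labels used here name neither the transgene nor what the controls were given. Each array set liver RNA (Cy5, red) against a purchased reference RNA from 11 mouse cell lines (Cy3, green), and the dyes were never swapped. All values are log2 ratios of liver over reference, so they compare a probe between animals and not 1 probe with another.

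CYP3A enzymes oxidise steroids, bile acids and many drugs, and take their electrons from the reductase Por. In mouse liver several of the genes are induced through the nuclear receptors PXR (Nr1i2) and CAR (Nr1i3). Cyp3a11 is the main form of adult liver and the usual readout of PXR. Cyp3a16 is known mainly from fetal and young liver, Cyp3a41 and Cyp3a44 are higher in female liver, Cyp3a25 is expressed in liver and intestine, and Cyp3a13 is best known from the small intestine.

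All of these genes lie on chromosome 5. In the order of the RefSeq annotation, Cyp3a13 stands apart from a cluster that runs Cyp3a57, Cyp3a16, Cyp3a41b, Cyp3a41a, Cyp3a44, Cyp3a11, Cyp3a25 and Cyp3a59. The 250 bases before the annotated start were compared between genes and are shown for the 5 measured members, because their identity is set beside likeness in expression further on. The sequences are from RefSeq, build GRCm38.p6. The windows lie at chr5:145879855-145880104 for Cyp3a11, chr5:145469724-145469973 for Cyp3a16, chr5:145805875-145806124 for Cyp3a44, chr5:146009619-146009868 for Cyp3a25 and chr5:137921620-137921869 for Cyp3a13, all on the minus strand and written 5′ to 3′ toward the start. Capitals mark matches on either strand to AGGTCA, the half-site bound by many nuclear receptors, and to CAAAGTCCA, a form of the site of HNF4, a nuclear receptor of hepatocytes.
Cyp3a11: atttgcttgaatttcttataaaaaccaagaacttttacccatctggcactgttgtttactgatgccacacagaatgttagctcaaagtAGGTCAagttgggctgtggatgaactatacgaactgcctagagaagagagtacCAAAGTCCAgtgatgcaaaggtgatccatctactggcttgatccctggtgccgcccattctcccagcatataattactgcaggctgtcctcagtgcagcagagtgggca
Cyp3a16: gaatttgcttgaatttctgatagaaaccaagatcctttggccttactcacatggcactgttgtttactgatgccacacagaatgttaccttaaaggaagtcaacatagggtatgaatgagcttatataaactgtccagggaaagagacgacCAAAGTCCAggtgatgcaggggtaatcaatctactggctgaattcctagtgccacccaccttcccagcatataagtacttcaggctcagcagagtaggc
Cyp3a44: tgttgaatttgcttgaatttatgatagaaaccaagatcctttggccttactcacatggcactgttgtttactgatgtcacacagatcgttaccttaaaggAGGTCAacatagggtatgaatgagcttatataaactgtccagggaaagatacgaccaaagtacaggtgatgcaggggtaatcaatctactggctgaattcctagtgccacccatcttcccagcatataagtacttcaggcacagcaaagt
Cyp3a25: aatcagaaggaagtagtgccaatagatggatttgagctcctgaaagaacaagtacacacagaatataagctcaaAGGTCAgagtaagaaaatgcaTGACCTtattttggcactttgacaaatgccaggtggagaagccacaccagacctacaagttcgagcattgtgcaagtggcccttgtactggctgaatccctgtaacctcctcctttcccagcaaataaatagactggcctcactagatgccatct
Cyp3a13: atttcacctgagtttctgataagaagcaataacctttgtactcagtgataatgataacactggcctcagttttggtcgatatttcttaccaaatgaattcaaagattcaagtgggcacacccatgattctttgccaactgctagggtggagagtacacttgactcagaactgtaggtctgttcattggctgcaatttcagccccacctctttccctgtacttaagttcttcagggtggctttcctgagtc

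The windows fell into 2 groups and a single gene. Cyp3a16, Cyp3a41a, Cyp3a41b and Cyp3a44 were 90.9 to 99.6% identical to each other over the aligned columns and 71.7 to 76.3% identical to Cyp3a11. Cyp3a25, Cyp3a57 and Cyp3a59 were 88.9 to 94.8% identical to each other. Identity between the 2 groups was 49.1 to 53.6%, and Cyp3a13 was 47.5 to 56.2% identical to any other gene. No unrelated windows were aligned, so whether identities this low exceed those of unrelated sequence was not tested.

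All letters searched were picked after these windows had been read. CAAAGTCCA was found in Cyp3a11, Cyp3a16, Cyp3a41a and Cyp3a41b and in 0.384% of 32851 promoter windows of the same length. TATAAGTA lay 30 bases before the start in Cyp3a16 and 26 bases before it in Cyp3a41a, Cyp3a41b and Cyp3a44 (0.387% of all windows). AGGTCA occurred at 2 positions each in Cyp3a25, Cyp3a57 and Cyp3a59 and at 1 position each in Cyp3a11 and Cyp3a44 (14.0% of all windows). AAATAAATA was found in Cyp3a25, Cyp3a57 and Cyp3a59 (1.26% of all windows). None of the 9 windows held GCGTG, the core letters bound by the aryl hydrocarbon receptor with its partner Arnt, which 28.2% of all windows held on either strand. None held TTATGNAA (the D-box of Dbp and Tef, in 3.07% of all windows) or CACGTG (the E-box, in 6.02%). Only exact letters within 250 bases were searched, with motifs free to overlap.

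Slide took a share of the variance that ran from 15.4% for Cyp3a44 and 18.0% for the second Cyp3a13 probe to 75.3% for Cyp3a25. The arrays sat on 3 slides, each holding all 4 groups. Slide 1 carried 2 controls and 1 animal of each dose. Slide 2 carried 2 animals from every group, and slide 3 carried 1 control, 1 animal at 12.5 mg/kg and 2 at each remaining dose. Between 35.5 and 56.7% of an array's spots had liver signal clear of background, with a mean of 39.8% ± 5.01 at 12.5 mg/kg (SD, n = 4), against 47.0% ± 7.90 in controls (n = 5). All 8 hepatocyte markers were above background on all 19 arrays. As log2 ratios, all 8 were lower at 12.5 mg/kg than in controls (median -0.24), and 5 of 8 with slide as a block (median -0.05), with 0 passing the test. All 8 were also lower at 6.25 mg/kg (median -0.35) and at 25 mg/kg (median -0.28). With the block 8 of 8 (median -0.14) and 7 of 8 (median -0.05) were lower at those doses, again with 0 passing. Their summed liver signal was 3840000 to 4357000 intensity units in controls, 3166000 to 4185000 at 6.25 mg/kg, 3618000 to 4879000 at 12.5 mg/kg and 3264000 to 3783000 at 25 mg/kg. Among 7 measured macrophage markers the sum was 12900 to 26320 over the dosed animals, against 15880 to 43740 in controls. In tissue RNA, fewer cells of a type and less RNA per cell cannot be told apart. The part of signal strength or cell content in any result was not tested.

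None of the 7 member probes passed an adjusted p under 0.05 at any dose, in the test for any dose or in the linear dose trend (limma, Benjamini-Hochberg over 29415 probes). Over all probes, 0.0578% passed at 25 mg/kg, 0% at 12.5 mg/kg, 0% at 6.25 mg/kg, 0.0102% for any dose and 0.0204% for the trend. With slide as a block the member count was again 0 throughout, where 0.809%, 0.0068%, 0%, 0.0748% and 0.241% of all probes passed in the same order. In the liver channel alone it was 0 as well, against 0.282%, 0.0068%, 0%, 0.0374% and 0.116% of all probes. At an unadjusted p under 0.05, 3 of 7 member probes were lower at 12.5 mg/kg, both Cyp3a11 probes and Cyp3a16, against 4.21% of all probes in either direction. These 3 are not independent. With slide means removed, the Cyp3a11 probes correlated with r = 0.85, and the brighter one with Cyp3a16 with r = 0.93. The counts at an unadjusted p under 0.05 were 0 of 7 at 6.25 mg/kg (5.57% of all probes), 25 mg/kg (7.37%), any dose (5.08%) and the trend (5.87%). With slide as a block, the same 3 probes stood below that level at 12.5 mg/kg (9.5% of all probes) and for any dose (14.2%), and the 2 Cyp3a13 probes did so at 6.25 mg/kg (11.7%).

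No member probe separated a dose from control completely. The 7 ranges overlapped with those of controls at every dose, so the count not overlapping was 0 of 7 throughout. Of all probes, 0.741% lay wholly below and 1.01% wholly above controls at 25 mg/kg. The shares were 0.962% and 0.5% at 12.5 mg/kg, and 0.408% and 0.561% at 6.25 mg/kg. Within each slide separately, 4 of 7 member probes (both Cyp3a11 probes, Cyp3a16 and Cyp3a44) had a lower mean at 12.5 mg/kg than in controls on all 3 slides, against 18.4% of all probes. These 4 probes ran together across animals, so they are not 4 separate results. For Cyp3a44 the slide 2 difference was -0.01, between animals that were all not well above background, so its direction there is not measured. The 2 Cyp3a13 probes were higher than controls on all 3 slides at 6.25 mg/kg (17.4% of all probes) and at 25 mg/kg (15.6%). Cyp3a25 was lower on all 3 slides at 25 mg/kg (18.6%). On slides 1 and 3 such a difference sets at least 1 lone animal, dosed or control, against the other group.

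**Figure D1:**
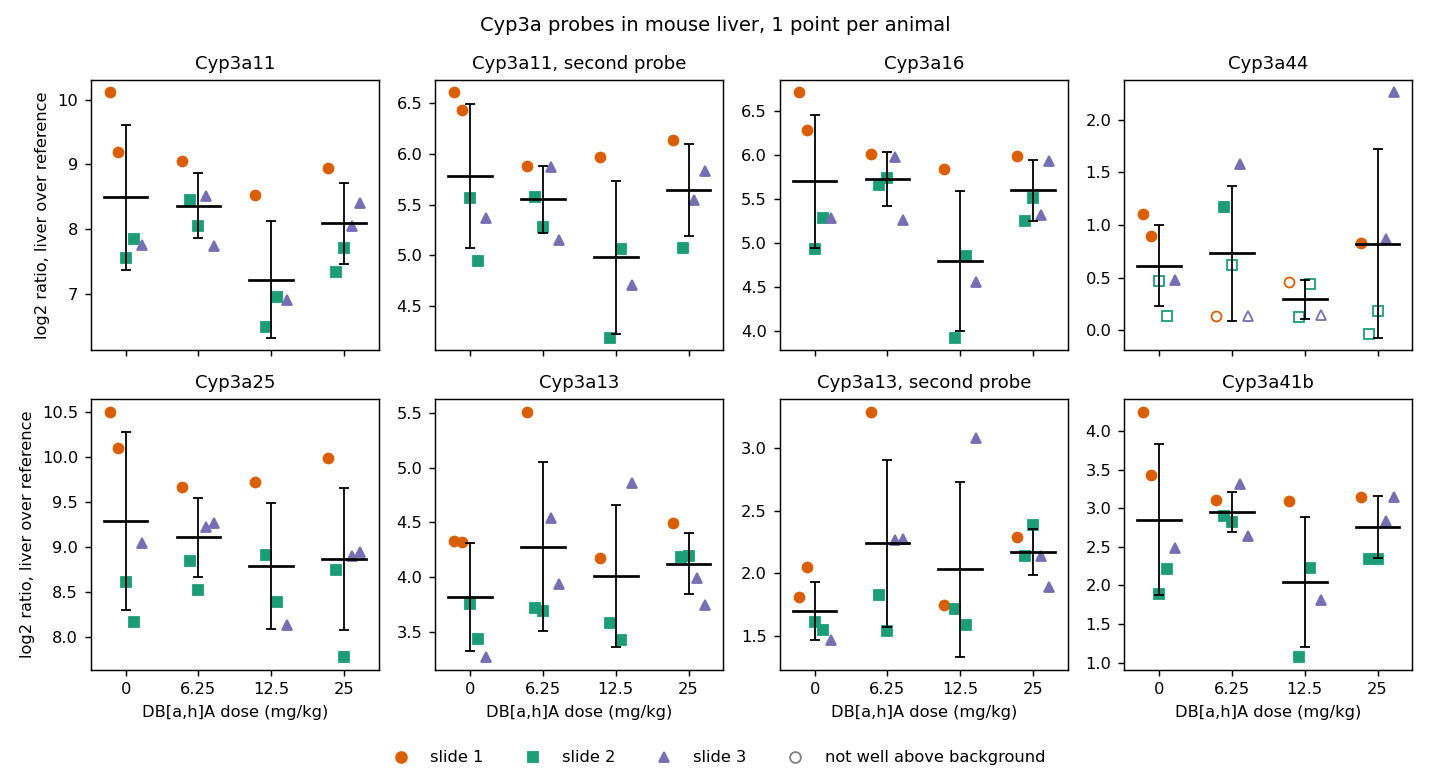
Log2 ratio of liver over reference (vertical axis) for the 7 member probes and Cyp3a41b at each dose in mg/kg (horizontal axis), 1 point per animal, coloured by slide, with the group mean (thick line) and SD (bars). Open points were not well above background. Slide 1 points stand high in most panels. The 12.5 mg/kg points on slides 2 and 3 lie lowest for the brighter Cyp3a11 probe (6.48 to 6.95) and Cyp3a16. For the second Cyp3a11 probe, a slide 2 control at 4.95 lies below a 12.5 mg/kg animal of that slide at 5.06.

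Cyp3a11, the main CYP3A of adult mouse liver, had its lowest mean at 12.5 mg/kg, with a difference from controls that did not pass the test. In the order of slides 1, 2 and 3, its brighter probe had log2 ratios of 10.12, 9.19, 7.56, 7.84 and 7.75 in controls and of 9.05, 8.46, 8.06, 8.52 and 7.74 at 6.25 mg/kg. At 12.5 mg/kg the ratios were 8.53, 6.48, 6.95 and 6.91, and at 25 mg/kg they were 8.95, 7.33, 7.71, 8.05 and 8.40. The slide 2 and slide 3 animals at 12.5 mg/kg were thus the lowest of all 19, while the slide 1 animal of that dose lay within the control range. Group means were 8.49 ± 1.12 (controls), 8.36 ± 0.50 (6.25 mg/kg), 7.22 ± 0.90 (12.5 mg/kg) and 8.09 ± 0.62 (25 mg/kg), with SD and n of 5, 5, 4 and 5.

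For that probe the log2 change at 12.5 mg/kg was -1.27 ± 0.49 (SE), a fold of 0.414, with a 95% interval of -2.31 to -0.24 and an adjusted p of 0.999 (limma). With slide as a block it was -1.05 ± 0.24, with an interval of -1.56 to -0.54 and an adjusted p of 0.175. The difference from control was -1.12 on slide 1, -0.98 on slide 2 and -0.84 on slide 3. The change at 6.25 mg/kg was -0.13 ± 0.47, and 0.13 ± 0.23 with the block, so its sign turned. At 25 mg/kg it was -0.40 ± 0.47, and -0.14 ± 0.23 with the block. The slope on dose was -0.20 ± 0.20 per 10 mg/kg (adjusted p = 0.984), with the 25 mg/kg mean lying between those of 12.5 mg/kg and controls.

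The spread of Cyp3a11 limited this comparison. Its SE at 12.5 mg/kg, 0.494, compares with a median of 0.155 over all probes, and only 1.14% of probes had a larger one. Slide alone accounted for 59.1% of its variance and dose for 29.7%, and the 2 together for 84.7%. Reference signal of this probe was above background on 1 of 19 arrays, so its ratios follow the liver channel over a nearly dark reference.

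The second Cyp3a11 probe, whose reference signal was above background on all 19 arrays, ran alongside. Its means were 5.79 ± 0.71 (controls), 5.55 ± 0.33 (6.25 mg/kg), 4.98 ± 0.75 (12.5 mg/kg) and 5.65 ± 0.45 (25 mg/kg), with SD and n of 5, 5, 4 and 4. The scanner software had marked 1 spot at 25 mg/kg as an outlier, and that value was left out. Its change at 12.5 mg/kg was -0.80 ± 0.36 (adjusted p = 0.999), and -0.66 ± 0.21 with slide as a block (adjusted p = 0.336). After removal of slide means the 2 probes correlated over 18 animals with r = 0.85 and rho = 0.77.

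Cyp3a16 also had its lowest mean at 12.5 mg/kg, with a difference that did not pass the test. Its control ratios were 6.72, 6.29, 4.94, 5.29 and 5.28 by slide, and those at 6.25 mg/kg were 6.02, 5.66, 5.74, 5.98 and 5.26. The ratios were 5.84, 3.92, 4.85 and 4.56 at 12.5 mg/kg, and 6.00, 5.25, 5.51, 5.32 and 5.94 at 25 mg/kg. The 3 animals at 12.5 mg/kg on slides 2 and 3 were again the lowest of all 19, and controls on slide 1 the highest. The change at 12.5 mg/kg was -0.91 ± 0.36 (95% interval -1.65 to -0.16, adjusted p = 0.999), and -0.77 ± 0.23 with slide as a block (adjusted p = 0.293). The within-slide differences were -0.66, -0.72 and -0.72 on slides 1, 2 and 3. At 6.25 mg/kg the change was 0.03 ± 0.34 and at 25 mg/kg it was -0.10 ± 0.34. The block turned the sign at 25 mg/kg (0.07 ± 0.21).

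Cyp3a41b, the neighbour whose 250-base window differs from that of Cyp3a41a at few positions (249 of 250 columns identical), was measured on 1 probe. Its means were 2.85 ± 0.97 (controls), 2.95 ± 0.26 (6.25 mg/kg), 2.05 ± 0.84 (12.5 mg/kg) and 2.76 ± 0.40 (25 mg/kg), with SD and n of 5, 5, 4 and 5. The change at 12.5 mg/kg was -0.81 ± 0.41 (adjusted p = 0.999), and -0.65 ± 0.27 with the block (adjusted p = 0.447). Its reference signal was above background on 0 of 19 arrays.

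Cyp3a44 was near the limit of detection. Its liver signal stood well above background in 3 of 5 controls, in 2 of 5 animals at 6.25 mg/kg, in 0 of 4 at 12.5 mg/kg and in 3 of 5 at 25 mg/kg. The highest ratio was 2.26 in 1 animal at 25 mg/kg, whose group ran down to -0.03, while all 4 animals at 12.5 mg/kg lay between 0.12 and 0.46. Since the 12.5 mg/kg group was not well above background, the size of any fall there was not measured. For each 12.5 mg/kg animal, the larger was taken of its own signal and the lowest probe signal well above background on its array. The mean of these values lay 1.20-fold below the control mean. It is not an upper limit for this probe, and the control mean includes animals not well above background. The change in ratio at 12.5 mg/kg was -0.32 ± 0.37, with an interval of -1.1 to 0.46 (adjusted p = 0.999, limma), so a lower signal was not shown. Liver signals are also open to dye bias because dyes were not swapped. Measured mean log2 liver signals were 6.23 at 12.5 mg/kg and 6.62 in controls. The changes in ratio were 0.12 ± 0.35 at 6.25 mg/kg and 0.21 ± 0.35 at 25 mg/kg.

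Cyp3a25, the brightest of the member probes in median liver signal, had ratios that followed slide more than dose. They were 10.51, 10.10, 8.61, 8.16 and 9.04 in controls, and 9.67, 8.85, 8.52, 9.22 and 9.27 at 6.25 mg/kg. They were 9.73, 8.91, 8.39 and 8.13 at 12.5 mg/kg, and 9.99, 8.74, 7.77, 8.90 and 8.94 at 25 mg/kg. The slide 1 animal or animals were the highest of every group, and slide accounted for 75.3% of the variance against 7.60% for dose. The changes were -0.18 ± 0.44 at 6.25 mg/kg, -0.49 ± 0.46 at 12.5 mg/kg and -0.42 ± 0.44 at 25 mg/kg. With the block they were 0.04 ± 0.22, -0.29 ± 0.23 and -0.20 ± 0.22 (adjusted p = 0.966, 0.731 and 0.729).

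Cyp3a13 was the only member gene with a higher mean than controls at every dose. Its brighter probe had ratios of 4.33, 4.32, 3.75, 3.43 and 3.27 in controls and 5.51, 3.72, 3.69, 4.54 and 3.94 at 6.25 mg/kg. The ratios were 4.18, 3.58, 3.43 and 4.86 at 12.5 mg/kg and 4.50, 4.19, 4.19, 3.99 and 3.75 at 25 mg/kg. The means at 6.25 and 12.5 mg/kg leaned on 1 animal each, and the 25 mg/kg group had the smallest SD, 0.28. Without the slide 1 animal at 6.25 mg/kg the change at that dose was 0.15. The changes were 0.46 ± 0.33, 0.19 ± 0.35 and 0.30 ± 0.33 at 6.25, 12.5 and 25 mg/kg (adjusted p = 0.929, 0.999 and 0.883).

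The second Cyp3a13 probe gave 0.54 ± 0.28, 0.33 ± 0.30 and 0.47 ± 0.28 at the same doses (adjusted p = 0.902, 0.999 and 0.783). With slide as a block the brighter probe gave 0.59 ± 0.25, 0.31 ± 0.26 and 0.43 ± 0.25 (adjusted p = 0.367, 0.750 and 0.454). Without the 1 high animal at 12.5 mg/kg, on slide 3, the change at that dose was -0.09 for the brighter probe and -0.02 for the second. The 2 probes correlated with r = 0.94 and rho = 0.85 over 19 animals after removal of slide means.

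**Figure D2:**
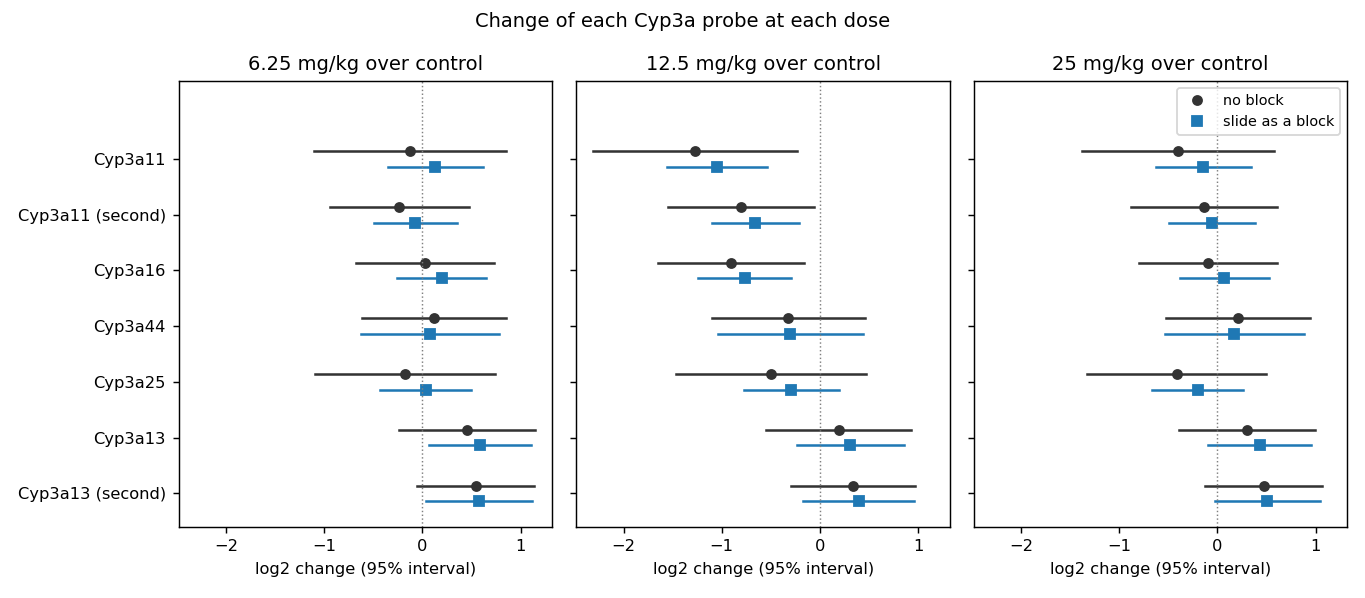
Log2 change from control (horizontal axis) of each member probe at 6.25, 12.5 and 25 mg/kg, with 95% intervals from limma, without a block (circles) and with slide as a block (squares). The intervals of both Cyp3a11 probes and Cyp3a16 lie below 0 at 12.5 mg/kg, before any adjustment over the 29415 probes.

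The members did not vary independently of each other across animals. All 28 pairs among 8 Cyp3a genes were correlated over the 19 animals after slide means had been removed, with permutation within slides and adjustment over the 28 pairs. Among Cyp3a11, Cyp3a16, Cyp3a41b and Cyp3a44, r lay between 0.63 and 0.955, and all 6 pairs had an adjusted p under 0.05. Among Cyp3a25, Cyp3a57 and Cyp3a59 it lay between 0.76 and 0.89, again with all 3 pairs under 0.05. Of the 12 pairs between these sets, r was 0.20 to 0.60 and 1 pair, Cyp3a41b with Cyp3a59, was under 0.05 (r = 0.60, adjusted p = 0.0315). Its rho of 0.57 had an adjusted p of 0.0528. The 2 sets were drawn after the values had been seen.

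Cyp3a11 and Cyp3a16 correlated with r = 0.93 and rho = 0.92 (permutation p = 1e-05 for each, the smallest that 100000 permutations can give, adjusted p = 0.00014). Without the 2 animals farthest from the median of Cyp3a16, r was 0.89. It was 0.91 within slide 2 and 0.98 within slide 3. With dose group means removed as well as slide means, r was 0.85, and in the liver channel alone it was 0.96. Cyp3a25 and Cyp3a57 correlated with r = 0.84 and rho = 0.79 (permutation p = 0.00011 and 0.0004, adjusted p = 0.000616 and 0.00224), and r was 0.80 without the 2 farthest animals. These genes are close paralogs. Probe sequences were not used here, and whether a probe also binds a neighbour's transcript was not tested. The 2 probes of Cyp3a59 disagreed (r = -0.50, rho = -0.50, n = 18), and the brighter one was used.

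Cyp3a13 ran against the second set in these data, though without passing the adjustment. Its r was -0.57 with Cyp3a57 (rho = -0.15), -0.54 with Cyp3a59 (rho = -0.28) and -0.40 with Cyp3a25 (rho = -0.11). The adjusted permutation p of r was 0.062, 0.0783 and 0.193 in the same order. Without the 2 animals farthest in Cyp3a13 the values were -0.17, -0.12 and -0.05, so the relation rests on those 2 animals. With Cyp3a16, Cyp3a41b, Cyp3a11 and Cyp3a44 its r was -0.05, -0.12, -0.09 and -0.25. Without the same 2 animals it was 0.29, 0.25, 0.21 and 0.08.

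**Figure D3:**
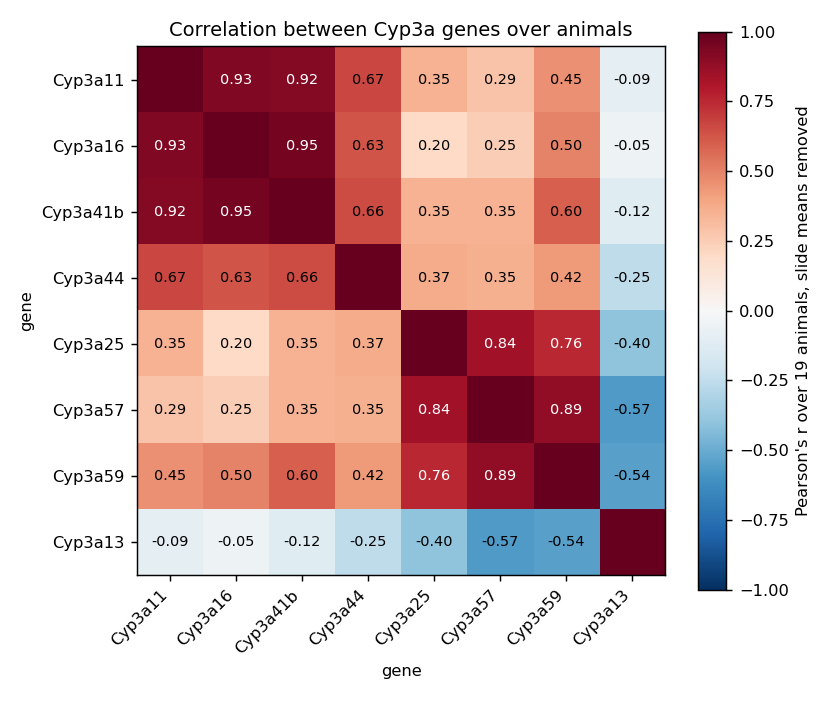
Pearson's r between the log2 ratios of 8 Cyp3a genes over 19 animals, with slide means removed, red for positive and blue for negative values. The block of Cyp3a11, Cyp3a16, Cyp3a41b and Cyp3a44 and the block of Cyp3a25, Cyp3a57 and Cyp3a59 stand out, and the Cyp3a13 row is negative throughout, down to -0.57. Without the 2 animals farthest in Cyp3a13, its r with Cyp3a11, Cyp3a16, Cyp3a41b and Cyp3a44 was positive.

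Identity of the 250-base windows was set beside the correlation of each pair. The 9 pairs within a set had identities of 71.7 to 94.8% and r of 0.63 to 0.955. The other pairs had identities of 47.5 to 56.2% and r of -0.57 to 0.60. Within the first set the order was not kept, since Cyp3a44 with Cyp3a41b had 94.8% identity and r = 0.66, whereas Cyp3a11 with Cyp3a16 had 76.3% identity and r = 0.93. The ranges of r met in other values: in the deposited table the lowest r within a set was 0.54 and the highest between sets 0.62, and within slide 2 they were 0.43 and 0.44. Pairs share genes and animals, and the sets were drawn after the values had been seen, so this is a description. The part of probes binding a close paralog's transcript in these values was not tested.

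**Figure D4:**
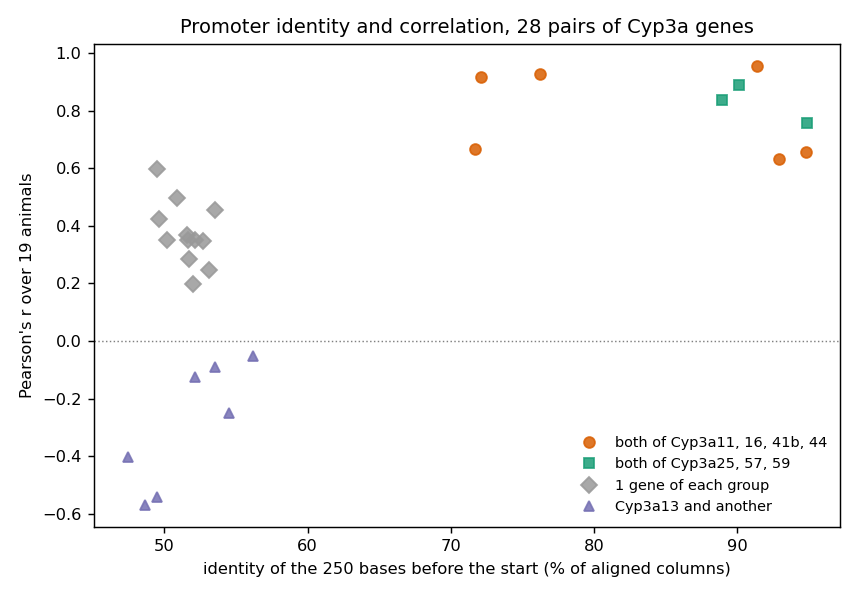
Identity of the 250 bases before the start, in percent of aligned columns (horizontal axis), against Pearson's r over 19 animals with slide means removed (vertical axis) for 28 pairs of Cyp3a genes, by set. Pairs within a set lie at the upper right, from 71.7% identity and r of 0.63 upward, and pairs with Cyp3a13 lie lowest.

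Outside the family, the genes whose ratios ran most like a member's were named from 13542 genes by r over the 19 animals with slide means removed, with no test. For Cyp3a11 the 2 nearest of all genes were Cyp3a16 and Cyp3a41b, and those that came after included Ech1, an enzyme of fatty acid oxidation (r = 0.82), Mocs2 (0.80), Tmem64 (0.78) and She (0.78). For Cyp3a16, after Cyp3a41b and Cyp3a11, they were Ech1 (0.81), Acadm, a medium-chain acyl-CoA dehydrogenase (0.80), Cyp2b10, the usual readout of CAR (0.78), Higd1b (0.78) and Idh2 (0.77). For Cyp3a25 they were Tecpr1 (0.83), Lztr1 (0.81), Npy4r (0.81), Capn2 (0.81) and Slc39a8 (0.80), after Cyp3a57. For Cyp3a44 they were C1qtnf2 (0.81), Rgs5 (0.81), Sdccag8 (0.80), Tbxa2r (0.78) and Ednra (0.78), and the nearest family member, Cyp3a11, ranked 45. For Cyp3a13 they were Thsd1 (0.89), Esr1, the estrogen receptor alpha (0.88), Cd302 (0.87), Ppm1l (0.85) and Slc16a12 (0.84), and no other Cyp3a gene had a positive r.

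Genes that control the Cyp3a family gave no call. Of 16 regulators, all measured, 0 passed at any dose, with a median log2 change of 0.04 at 6.25 mg/kg, 0.01 at 12.5 mg/kg and 0.14 at 25 mg/kg, beside 0.00 to -0.02 over 13812 genes measured. Nr1i2, which encodes PXR, had changes of 0.13 ± 0.38, -0.06 ± 0.40 and 0.39 ± 0.38 in dose order, and Nr1i3, which encodes CAR, had 0.02 ± 0.29, -0.25 ± 0.31 and 0.12 ± 0.29. The regulators of smallest p at 25 mg/kg were the forkhead factors Foxa2 (0.65 ± 0.26, adjusted p = 0.535) and Foxo1 (0.38 ± 0.16, adjusted p = 0.569) and the glucocorticoid receptor Nr3c1 (0.24 ± 0.10, adjusted p = 0.611).

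Of 28 other genes induced through PXR or CAR, 25 were measured and 0 passed at any dose. At 12.5 mg/kg 21 of the 25 were lower than controls and 4 higher, with a median log2 change of -0.19, and with slide as a block 18 were lower (median -0.11). Over all genes measured, 7457 of 13812 were lower at that dose. Other liver lists were also mostly lower there without a block: 8 of 8 hepatocyte markers (median -0.24), 10 of 12 periportal genes (-0.20) and 14 of 15 male-biased genes (-0.25). These lists were lower at the other doses too. Hepatocyte markers were 8 of 8 lower at 6.25 mg/kg (median -0.35) and at 25 mg/kg (-0.28). Male-biased genes were 15 of 15 and 14 of 15 lower at those doses, and periportal genes 7 and 8 of 12. The 4 PXR or CAR targets of smallest p at 12.5 mg/kg, picked after their values were seen, were Cyp2b10 (-1.64 ± 0.68), the glutathione transferase Gsta1 (-0.76 ± 0.27), the retinal dehydrogenase Aldh1a1 (-0.48 ± 0.19) and the stress-induced Gadd45b (0.28 ± 0.11), with an adjusted p of 0.999 for each. At 25 mg/kg the median of the 25 targets was -0.01, with 12 of 25 higher, and with slide as a block it was 0.09, with 18 of 25 higher. The targets of smallest p there were the efflux transporter Abcb1a (0.48 ± 0.13, adjusted p = 0.213), the sulfate donor synthase Papss2 (0.61 ± 0.23, adjusted p = 0.491) and Gsta1 (-0.52 ± 0.25, adjusted p = 0.688).

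The enzymes that serve P450s as electron donors or make heme were 14 genes, all measured. They gave 0 calls without a block and 1 at 25 mg/kg with slide as a block, where 82 of 13812 genes rose and 53 fell. The gene called was Por, the reductase that passes electrons to CYP3A enzymes. Its log2 change was 1.003 ± 0.40 at 6.25 mg/kg, 1.11 ± 0.42 at 12.5 mg/kg and 1.81 ± 0.40 at 25 mg/kg (adjusted p = 0.101 at 25 mg/kg). With the block the change at 25 mg/kg was 1.89 ± 0.39 (adjusted p = 0.0346). Calls over all probes at that dose with the block numbered 238, and 25 to 320 with 1 animal left out. Alas1, the first enzyme of heme synthesis, had 1.13 ± 0.66 at 25 mg/kg (adjusted p = 0.771), and Pgrmc1, a heme-binding partner of P450s, had 0.16 ± 0.13 (adjusted p = 0.845).

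The PAR bZip factors Dbp, Tef and Hlf act on P450 genes and on Nr1i3 in liver, and they stand with the clock genes in 1 list of 15 genes, of which 14 were measured. At 25 mg/kg 2 of these rose and 1 fell without a block, and 5 rose and 3 fell with slide as a block. Over all 13812 genes measured, 6 rose and 1 fell without a block, and 82 rose and 53 fell with it. Without 25 mg/kg replicate 1 and no block, 0 probes of the whole array passed at 25 mg/kg, so these calls were lost, and without control replicate 4 only 1 probe passed. At 12.5 mg/kg, where Cyp3a11 was lowest, 0 passed without a block and 1, Dbp, rose with it (log2 change 3.65 ± 0.51, adjusted p = 0.0257). Without a block the 25 mg/kg changes were 3.71 ± 0.54 for Dbp (adjusted p = 0.013), 1.35 ± 0.21 (adjusted p = 0.0129) for the clock repressor Nr1d2 and -1.45 ± 0.25 (adjusted p = 0.0396) for Nfil3, a repressor at the same sites as Dbp.

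As Cyp3a41 and Cyp3a44 are known to be higher in female liver, sex-biased genes were set beside them. Of 15 female-biased genes 10 were measured, with 0 passing without a block and 3 rising at 25 mg/kg with it, where 82 of 13812 genes rose and 53 fell. These included Slc16a5, a transporter of the SLC16 family (1.73 ± 0.28, adjusted p = 0.0127), and the flavin monooxygenase Fmo2 (1.25 ± 0.22, adjusted p = 0.0151). Without a block 8 of the 10 were higher at that dose and 2 lower, from Slc16a5 (1.62) down to Rtn4 (-0.10). Of 15 male-biased genes, all measured, 0 passed with or without the block. Lower than controls at 25 mg/kg were 14 of the 15 without a block (median -0.28) and 9 with it (median -0.09). Over all 13812 genes, 7139 and 7074 were lower at that dose, in the same order. At 25 mg/kg Cyp3a41b and Cyp3a44 had changes of -0.09 and 0.21 in the same animals, and of 0.06 and 0.17 with the block.

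No acute phase gene of 15 measured passed at any dose, with median changes of -0.01, 0.09 and -0.05 in dose order. With slide as a block all 15 were higher at 12.5 mg/kg (median 0.24), again with 0 passing, beside 6670 of 13812 genes. In that fit 11 of the 15 were higher at 6.25 mg/kg and 12 at 25 mg/kg. Of 11 pericentral markers measured, 11 were lower at 12.5 mg/kg without a block (median -0.25) and 7 with it (median -0.16), and 0 passed. Of all 13812 genes, 7457 were lower at that dose without a block and 7142 with it. At 25 mg/kg 10 of the 11 markers were lower without a block and 6 with it, and at 6.25 mg/kg 6 and 1. Of 12 periportal genes, 10 were lower at 12.5 mg/kg without a block (median -0.20) and 8 with it (median -0.04), and 0 passed. The part of these genes in the lower Cyp3a11 and Cyp3a16 ratios at that dose was not tested.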

How the data were processed

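Agilent 2-colour arrays of 19 livers were analysed. The deposited scanner files hold red and green median intensity per spot with its local background. Per the file headers, the scans were read by Agilent's Feature Extraction software (10.7.3.1). The authors' deposited table holds log2 ratios of liver over reference, and no label says how it was made. Its columns correlated at 0.993 to 0.996 with loess ratios without background subtraction.

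Median signals were corrected with normexp (offset 50) and normalised by loess within each array, with control spots given no weight (limma 3.58.1, R 4.3.3). Outlier spots were set to missing, and spots of a probe averaged. Probes above background on more than a share of 0.5 of spots on at least 4 arrays were kept, 29415 of 55681. Symbols came from RefSeq accessions (GRCm38.p6, names and order only). The probe with the highest liver signal stood for a gene. lmFit and eBayes over 19 arrays gave 2-sided tests, adjusted by Benjamini-Hochberg over all kept probes. Slide came from the barcode in the name of each scanner file. On simulated ratios at 12.5 mg/kg (28712 probes), 84% of 100 probes moved by a log2 of 1 and 97% of 100 moved by 2 were recovered, with 12 false calls. Those probes were picked at random, and noise was drawn independently per probe and array with no slide effect. Only 1.14% of probes had a larger SE than Cyp3a11 at that dose, so these shares do not apply to that gene.

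Windows were aligned globally with Biopython 1.88 (match 1, mismatch -1, gap opening -3, gap extension -0.5). Nothing in the labels says more of the animals' origin, so p-values measure the spread between these animals. Members, gene lists, motif letters, the rule for named genes and settings were chosen with earlier results of these data known. That rule names the members and Por, Nr1i2 and Nr1i3, list genes that passed, otherwise the 3 of smallest p at 25 mg/kg for regulators, partners and targets, and the 5 most like genes; some genes it names are not reported here. Alternatives were slide as a block, other background and scaling choices, the liver channel alone, no filter, the deposited table, fewer arrays, and leaving out each animal. Quantile scaling of mean intensity (Aquantile) leaves log ratios as they are. The number of arrays limits precision.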

Additional observations from a re-analysis of the deposited data

Results flagged for a closer look

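The second Cyp3a13 probe had a log2 ratio of 3.08 in 1 animal at 12.5 mg/kg (replicate 1, slide 3), far from the 1.58 to 1.75 of the other animals at that dose. It was singled out by the size of its gap to the nearest animal of its group, 1 of 28 groups of values examined, and chance alone singles out about 1 in 20. The brighter Cyp3a13 probe was highest of its dose group in that animal, at 4.86. The same animal had the lowest Cyp3a59 ratio of all 19, at 6.44 on its brighter probe.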

How the results depend on the processing

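The count of 0 member probes passing held in each of the 5 tests, in all 38 counts under the other settings, and with each animal left out (0 to 0), with or without slide as a block. The block with animals left out was chosen after seeing the data. The lowest adjusted p, 0.0569, was for any dose, with the block and without 6.25 mg/kg replicate 5. Of 225 log2 changes and slopes under the other settings, 216 kept their sign and none passed. The 9 that turned were as follows. With slide as a block they were Cyp3a11 at 6.25 mg/kg (0.13), Cyp3a16 at 25 mg/kg (0.069) and Cyp3a25 at 6.25 mg/kg (0.036). With the scanner software's processed signals they were the second Cyp3a11 probe at 25 mg/kg (0.00061), and Cyp3a16 at 25 mg/kg (0.20), at 6.25 mg/kg (-0.17) and for the slope per 10 mg/kg (0.081). With the deposited table it was Cyp3a16 at 25 mg/kg (0.018), and with the liver channel alone Cyp3a16 at 6.25 mg/kg (-0.013). The cause was not tested. With each animal left out, 24 of 532 values turned. The ranges were, for Cyp3a11, -0.64 to 0.0033 at 25 mg/kg and -0.36 to 0.28 at 6.25 mg/kg; for its second probe, -0.35 to 0.070 at 25 mg/kg and -0.17 to 0.0014 for the slope. For Cyp3a13 at 12.5 mg/kg they were -0.091 to 0.38, and -0.016 to 0.48 for its second probe. For Cyp3a16 they were -0.29 to 0.15 at 25 mg/kg, -0.16 to 0.28 at 6.25 mg/kg and -0.14 to 0.0023 for the slope, and for Cyp3a25 -0.46 to 0.13 at 6.25 mg/kg. For Cyp3a44 they were -0.15 to 0.42 at 25 mg/kg, -0.10 to 0.26 at 6.25 mg/kg and -0.10 to 0.13 for the slope. Cyp3a11 at 12.5 mg/kg kept its sign throughout, at -1.71 to -0.87 with an animal left out and -1.74 to -0.90 under the other settings. Over all probes, calls at 25 mg/kg numbered 17 and ran from 10 to 238 under the other settings, those at 12.5 mg/kg 0 and up to 6, those for any dose 3 and 0 to 22, and those for the trend 6 and 2 to 71. With 1 animal left out and no block they ran from 0 to 67 at 25 mg/kg (0 without 25 mg/kg replicate 1), 0 to 5 at 12.5 mg/kg, 0 to 12 for any dose and 0 to 83 for the trend (12 and 83 without 6.25 mg/kg replicate 5). Under the block with 1 animal left out, they ran from 25 to 320 at 25 mg/kg and 0 to 15 at 12.5 mg/kg. At 6.25 mg/kg the range was then 0 to 19, for any dose 0 to 102 and for the trend 4 to 263. No paired analysis was possible because replicate numbers follow accession order and pair no animals. Reference signal near background limits the ratios of the brighter Cyp3a11 probe, Cyp3a16, Cyp3a41b and Cyp3a44, and Cyp3a44 liver signal was well above background on 8 of 19 arrays.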
